A study of Homo sapiens with 6 samples.

Results

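Gene expression in NB4 cells made deficient in ARID1A with either of a pair of guide RNAs, sg1 and sg5, was compared with that in NB4 cells carrying a LacZ guide. All 6 samples of the series entered the comparison, 4 ARID1A-deficient samples (2 with sg1 and 2 with sg5, joined into 1 group) and 2 LacZ samples. Of 18514 genes tested, 3717 had all 4 ARID1A-deficient samples on one side of both LacZ samples, and these genes are described here by function and by the blood lineage in which they are usually found. NB4 is an established human acute promyelocytic leukemia line. Its cells carried Cas9 and a small guide RNA (sgRNA) switched on by doxycycline, and every group, LacZ included, received doxycycline at 1 µg/ml for 7 days. Cells sorted for the reporters of both vectors were used as populations rather than as single clones, and a later culture period without doxycycline is described before RNA was isolated. Nothing states that same-group samples came from separate cultures, so that p-values measure the spread among these samples, which may be technical.

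ARID1A is the DNA-binding subunit that defines one form of the SWI/SNF complex, which uses ATP to move nucleosomes and keeps many enhancers open. Promyelocytes are granulocyte precursors that fill primary granules with myeloperoxidase and serine proteases, and related precursors give eosinophils, basophils and mast cells. Lineage genes of these cells are controlled by enhancers bound by factors such as GATA1, GATA2, PU.1 and the C/EBP family.

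Values are TMM-scaled CPM (counts per 1000000), which serve to compare 1 gene across samples, and TPM where genes are compared with each other. A difference was called at a false discovery rate (FDR) of 0.1 with the quasi-likelihood F-test of edgeR and Benjamini-Hochberg adjustment over all genes tested. Total estimated counts were between 46131178 and 54843745 per sample. The cells carried the transcripts of promyelocytes, with MPO (myeloperoxidase) at 5991 to 7769 TPM, PRTN3 (proteinase 3) at 429 to 852 TPM and AZU1 (azurocidin) at 203 to 302 TPM. ELANE (neutrophil elastase), from the same marker list, had 1 to 9 estimated counts per sample. Whether its main transcript was among those counted was not resolved, so these counts do not show that the gene is silent. Markers of mature lineages were at or near 0: HBA1, HBA2, HBB, PF4, GP9 and FCER1A had 0 counts in all 6 samples, and MS4A1 and CD3E had at most 3. In a principal component analysis, sg1 replicate 1 (34.3) and sg5 replicate 2 (46.8) lay apart from the other 4 samples (-30.3 to -11.3) on the first component (34.4% of the variance). Both LacZ samples were on one side of that gap, and the labels name no batch that follows it. Main counts below are therefore also given without these 2 libraries.

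The targeted gene was examined first. ARID1A (chromosome 1, 26693236 to 26782110 on GRCh38) had 155 and 191 CPM in the LacZ samples, 211 and 191 with sg1, 124 and 145 with sg5. The sg1 samples were above both LacZ samples, one of them barely, and the sg5 samples below both, so that the joined group overlapped LacZ (log2 fold change -0.04, SE 0.21, adjusted p = 0.965 by edgeR). Its transcript level therefore does not check the labels. Small deletions made by Cas9 need not lower the amount of a transcript, and protein was not part of these files. AL512408.1, a non-coding antisense gene that overlaps ARID1A in exons, rose with 0.247 and 0.317 CPM in the LacZ samples, 0.870 and 1.15 with sg1, 1.002 and 0.930 with sg5 (log2 fold change 1.80 (SE 0.31), adjusted p = 0.0637 by edgeR). With no strand stated for the counting, its reads and those of ARID1A cannot be told apart.

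In the joined comparison, 82 genes passed the threshold (0.443% of genes tested), 39 higher (0.211%) and 43 lower (0.232%) in ARID1A-deficient cells. All 82 had the 4 ARID1A-deficient samples on one side of both LacZ samples. The 3717 genes with this property were 20.1% of genes tested, 1799 higher (9.72%) and 1918 lower (10.4%), so that a like share of any gene list is background. Of the 3717, 3635 did not pass the test. The 82 calls became 198 (1.1% of genes tested) without the 2 libraries that lay apart, and 76 of the 82 were among them. Leaving out single libraries gave 10 calls without LacZ replicate 1, 20 without LacZ replicate 2, 35 without sg1 replicate 1, 146 without sg1 replicate 2, 51 without sg5 replicate 1 and 66 without sg5 replicate 2. The genes called in each of these 6 refits were PRG2, ITGA2B, HDC and COL27A1, which fell, and RIPOR2 and CUX2, which rose. Of the 82 calls, 23 held in 0 or 1 of the refits. CA2 and IRS1 held in 0, and ITGA3, ICAM3, CD79A, GPR183 and LRRC8C were among those that held in 1. The split of the 3717 depended on scaling, with 48.4% on the higher side by TMM-scaled CPM, 35.0% (1262 higher, 2343 lower) by plain CPM and 34.3% (1201 higher, 2297 lower) by TPM.

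**Figure D1:**
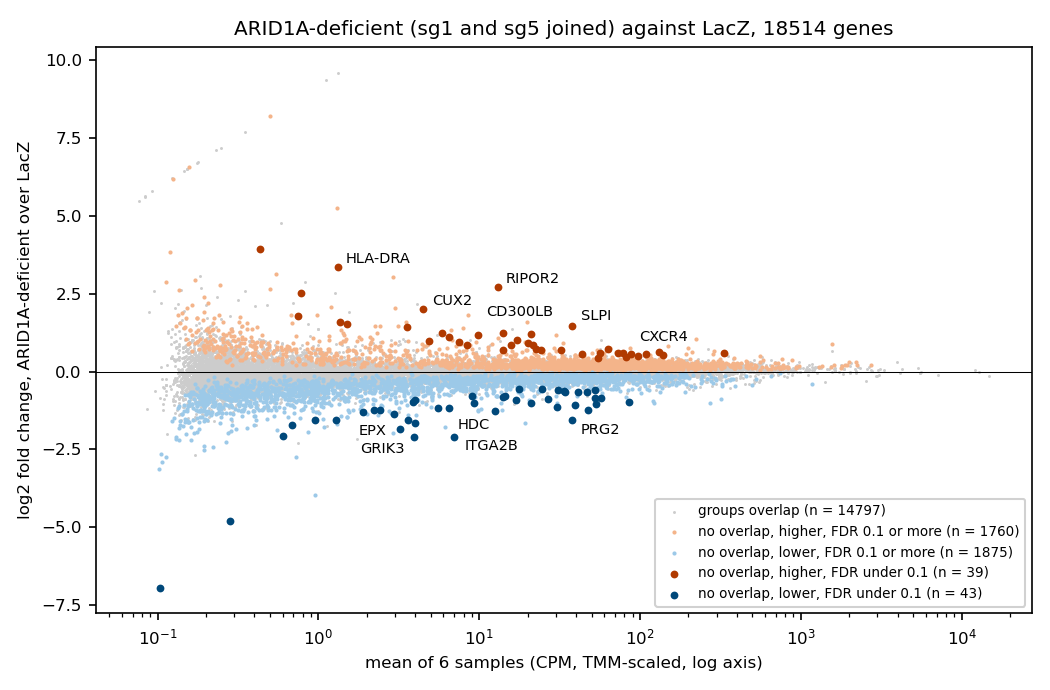
Each point is 1 of 18514 genes, with the mean CPM of the 6 samples on a log axis and the log2 fold change of ARID1A-deficient over LacZ samples on the vertical axis. Dark points are the 39 genes called higher and the 43 called lower, light colored points the other genes whose groups did not overlap, and gray points genes whose groups overlapped. Fold changes above 5 at the far left belong to genes with few counts, most of them gray.

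PRG2, EPX and HDC, which serve the granules of eosinophils, basophils and mast cells, all fell in ARID1A-deficient cells. PRG2 encodes the major basic protein of eosinophil granules (chromosome 11, 57386794 to 57390657). It had 62.9 and 71.8 CPM in the LacZ samples, 26.1 and 20.5 with sg1, 23.2 and 21.9 with sg5, so that the ARID1A-deficient samples lay close together and far below both LacZ samples. Its mean was 67.3 ± 6.31 CPM in LacZ (SD, n = 2) and 22.9 ± 2.38 in the ARID1A-deficient samples (SD, n = 4), a ratio of LacZ to ARID1A-deficient cells of 2.93 (log2 fold change -1.55 (SE 0.11), adjusted p = 0.000533 by edgeR). PRG2 shares exons with AP000781.2, a read-through gene that also fell (log2 fold change -1.13 (SE 0.16), adjusted p = 0.0288 by edgeR), so that reads could have been split between them. Another gene in that read-through, SLC43A3, overlapped between groups. EPX, eosinophil peroxidase, had 6.34 and 6.07 CPM in the LacZ samples, 1.80 and 2.16 with sg1, 1.64 and 1.33 with sg5. The sg5 samples were the lowest, and the groups were well apart (log2 fold change -1.84 (SE 0.21), adjusted p = 0.00737 by edgeR). HDC, histidine decarboxylase, which makes histamine in mast cells and basophils, had 20.7 and 20.3 CPM in the LacZ samples, 8.74 and 8.89 with sg1, 7.80 and 8.80 with sg5 (chromosome 15, 50241947 to 50266026). Both LacZ samples were nearly equal, and the 4 ARID1A-deficient samples formed a second tight cluster below them (log2 fold change -1.26 (SE 0.12), adjusted p = 0.00301 by edgeR).

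The eosinophil list as a whole did not move one way. Of 10 tested members, 2 were called, both lower (PRG2 and EPX), 3 lay below LacZ in all 4 ARID1A-deficient samples and 3 above, and the median log2 fold change was 0.09 beside -0.003 over all genes tested. SIGLEC8, an inhibitory lectin of eosinophils and mast cells, was the other gene below LacZ, with 1.54 and 1.39 CPM in the LacZ samples, 0.554 and 0.608 with sg1, 1.24 and 0.554 with sg5. That sg5 value of 1.24 came close to LacZ, and the difference did not pass (adjusted p = 0.449 by edgeR). RNASE2, the eosinophil-derived neurotoxin, lay on the other side, at 191 to 223 CPM in LacZ and 269 to 393 in the ARID1A-deficient samples (log2 fold change 0.67, adjusted p = 0.227 by edgeR). THBS4, a thrombospondin, was at 1.51 to 1.67 CPM in LacZ and 2.39 to 3.20 in the ARID1A-deficient samples (adjusted p = 0.227 by edgeR). ALOX15, a lipoxygenase, was at 0.399 to 0.476 CPM in LacZ and 0.633 to 0.990 in the ARID1A-deficient samples. Neither passed the test. CLC, PRG3 and IL5RA, also markers of eosinophils, were too low to test, with at most 5 counts in any sample, and CCR3, with 21 to 63 counts, overlapped between groups.

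Mast cell and basophil genes formed the list with the largest share of members below LacZ. Of 14 tested members, 9 lay below both LacZ samples in all 4 ARID1A-deficient samples and 0 above, against 10.4% and 9.72% of all genes, and the median log2 fold change was -0.85. HDC was the member called, and 8 of the 14 had an unadjusted p under 0.05. The count of 9 was also reached with plain CPM and with TPM, and without the 2 libraries that lay apart 11 lay below and 1 above, against 18.5% and 19.7% of all genes. TPSAB1, a mast cell tryptase, had 4.78 and 4.14 CPM in the LacZ samples, 1.98 and 2.99 with sg1, 2.17 and 2.12 with sg5 (adjusted p = 0.153 by edgeR). TPSB2, a second tryptase whose sequence is nearly the same so that reads could be split between them, was at 1.65 to 2.58 CPM in LacZ and 0.930 to 1.41 in the ARID1A-deficient samples. PTGDR2, a receptor for prostaglandin D2, was at 1.78 to 3.15 CPM in LacZ and 0.900 to 1.24 in the ARID1A-deficient samples (adjusted p = 0.140 by edgeR). RHEX, an adaptor in erythropoietin signaling, had 28.8 and 20.6 CPM in the LacZ samples, 16.4 and 13.7 with sg1, 15.7 and 13.6 with sg5, and its highest ARID1A-deficient value was below its lowest LacZ value without passing the test (adjusted p = 0.113 by edgeR). MS4A2, the beta chain of the high-affinity IgE receptor, which was chosen for its promoter after its values were seen, was at 1.10 to 1.21 CPM in LacZ and 0.573 to 0.752 in the ARID1A-deficient samples (adjusted p = 0.336 by edgeR). The summed level of the list was 140.3 to 156 CPM in LacZ and 110.3 to 127 in the ARID1A-deficient samples, and FCER1A, the alpha chain of the IgE receptor, had no counts. In these bulk samples, fewer cells with such transcripts and less RNA per cell cannot be told apart.

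**Figure D2:**
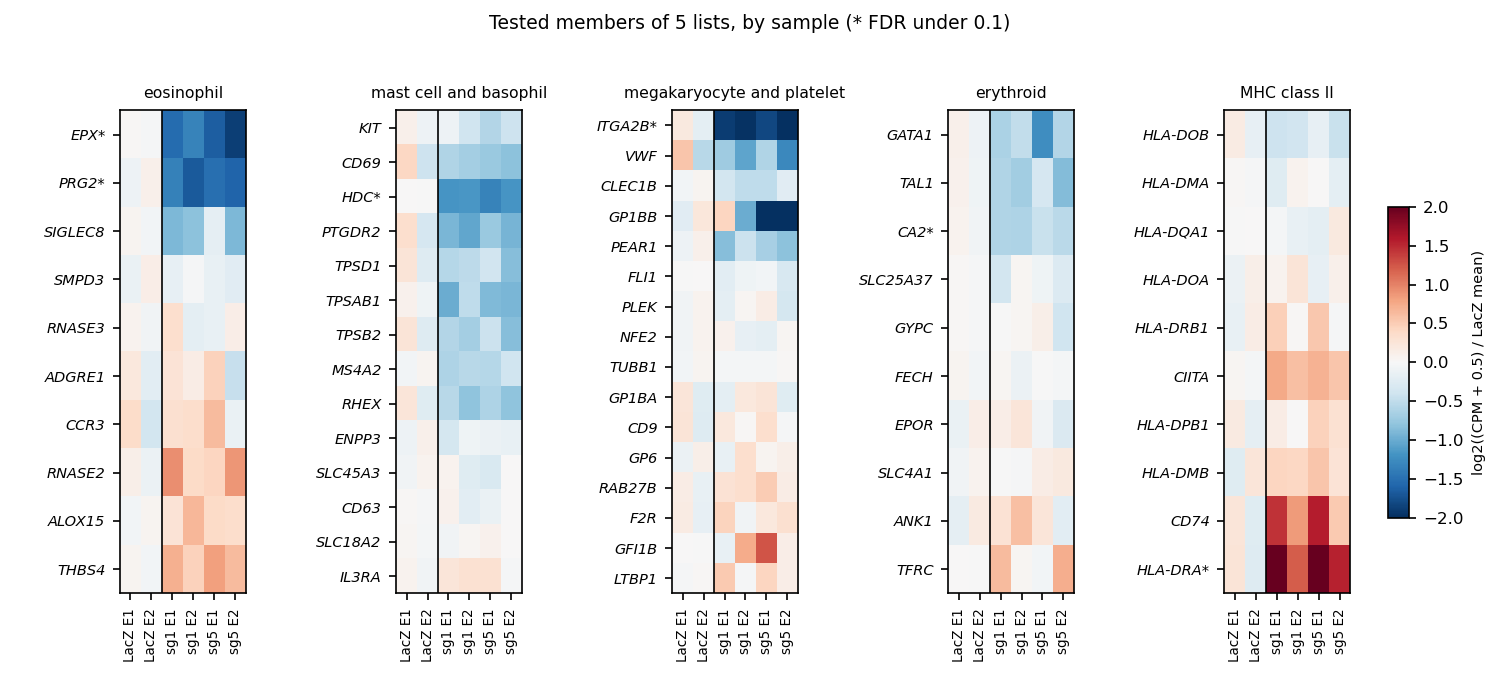
Rows are the tested members of 5 lists and columns the 6 samples. Color gives log2 of CPM plus 0.5 relative to the LacZ mean, from -2 (blue) to 2 (red), with the LacZ samples left of the black line, and an asterisk marks a call. Mast cell and basophil genes are blue in all 4 ARID1A-deficient columns for 9 of 14 rows, eosinophil rows split into 3 blue and 3 red, and HLA-DRA is red throughout.

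ITGA2B had the largest fall among the lineage genes. It encodes the alpha IIb chain of the platelet fibrinogen receptor and lies on chromosome 17, 44372180 to 44389505. It had 16.3 and 12.3 CPM in the LacZ samples, 3.42 and 3.22 with sg1, 3.67 and 2.99 with sg5, and the LacZ samples differed more from each other than the ARID1A-deficient samples did. Means were 14.3 ± 2.77 CPM in LacZ (SD, n = 2) and 3.32 ± 0.289 in the ARID1A-deficient samples (SD, n = 4), a ratio of 4.30 (log2 fold change -2.10 (SE 0.16), adjusted p = 0.000622 by edgeR). Fitted with 1 guide at a time against the same LacZ samples, its log2 fold change was -2.11 for sg1 and -2.10 for sg5. Across 16 tested megakaryocyte and platelet genes, 5 lay below LacZ and 0 above, against 10.4% and 9.72% of all genes. Of the 16, 1 was called, and the median was -0.05, near that of all genes. PEAR1, a platelet aggregation receptor, was at 4.37 to 5.12 CPM in LacZ and 2.39 to 3.38 in the ARID1A-deficient samples (adjusted p = 0.215 by edgeR). VWF, von Willebrand factor, was at 0.496 to 1.65 CPM in LacZ and 0.0989 to 0.469 in the ARID1A-deficient samples, and its LacZ samples differed from each other by more than the lower one did from the ARID1A-deficient samples. FLI1, an ETS factor of megakaryocytes, was at 119 to 120.3 CPM in LacZ and 95.2 to 115 in the ARID1A-deficient samples (log2 fold change -0.17), and CLEC1B, a platelet lectin receptor, was at 0.247 to 0.297 CPM in LacZ and 0.0426 to 0.158 in the ARID1A-deficient samples. CLEC1B reached the minimum of 10 counts for testing in the LacZ samples only, so its place among the 5 followed from the filter. PF4 and GP9, which define platelets, had no counts.

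Of 10 erythroid genes tested, 3 lay below LacZ and 0 above, against 10.4% and 9.72% of all genes. CA2, carbonic anhydrase 2, fell with 23.8 and 21.4 CPM in the LacZ samples, 14.7 and 14.5 with sg1, 16.4 and 15.4 with sg5 (log2 fold change -0.57 (SE 0.11), adjusted p = 0.0937 by edgeR), and it did not stay under the threshold in any refit that left out 1 library. GATA1 and TAL1 encode transcription factors shared by erythroid, megakaryocytic and mast cells. GATA1 had 1.92 and 1.59 CPM in the LacZ samples, 0.949 and 1.10 with sg1, 0.448 and 0.989 with sg5 (adjusted p = 0.396 by edgeR). TAL1 had 1.39 and 1.19 CPM in the LacZ samples, 0.672 and 0.608 with sg1, 0.916 and 0.475 with sg5 (adjusted p = 0.364 by edgeR). GATA2, a factor of progenitors and mast cells, was at 26.2 to 28.6 CPM in LacZ and 17.3 to 22.5 in the ARID1A-deficient samples (log2 fold change -0.47, adjusted p = 0.251 by edgeR). All 3 lay below LacZ in each ARID1A-deficient sample, and none passed in the fit of all 6 samples. Without the 2 libraries that lay apart, GATA2 had a log2 fold change of -0.63 and an adjusted p of 0.0334 by edgeR.

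Promoters of 4 of these lower genes are shown because GATA factors bind a short motif that many mast cell and megakaryocyte promoters carry. The motif was searched as AGATAA, as AGATAG, as TGATAA and as TGATAG on both strands, in 250 bases before and 50 after a RefSeq start of the gene (GRCh38.p14). Matches are in capitals, and all 4 sequences are written 5′ to 3′ on the strand of the gene. They are ITGA2B (chr17:44389600-44389899, minus strand), HDC (chr15:50265677-50265976, minus strand), MS4A2 (chr11:60088414-60088713, plus strand) and RHEX (chr1:206083345-206083644, plus strand).
ITGA2B: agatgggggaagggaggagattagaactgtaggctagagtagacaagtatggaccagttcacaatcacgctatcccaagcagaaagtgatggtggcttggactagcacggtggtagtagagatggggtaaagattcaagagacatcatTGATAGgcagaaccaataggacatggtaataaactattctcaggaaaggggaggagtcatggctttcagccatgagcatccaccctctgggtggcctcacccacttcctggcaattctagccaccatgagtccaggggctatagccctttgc
HDC: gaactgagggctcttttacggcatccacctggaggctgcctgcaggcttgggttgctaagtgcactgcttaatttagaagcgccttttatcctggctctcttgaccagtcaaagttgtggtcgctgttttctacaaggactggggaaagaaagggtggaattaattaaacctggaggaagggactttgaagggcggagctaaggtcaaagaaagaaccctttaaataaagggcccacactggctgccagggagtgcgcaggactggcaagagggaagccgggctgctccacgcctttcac
MS4A2: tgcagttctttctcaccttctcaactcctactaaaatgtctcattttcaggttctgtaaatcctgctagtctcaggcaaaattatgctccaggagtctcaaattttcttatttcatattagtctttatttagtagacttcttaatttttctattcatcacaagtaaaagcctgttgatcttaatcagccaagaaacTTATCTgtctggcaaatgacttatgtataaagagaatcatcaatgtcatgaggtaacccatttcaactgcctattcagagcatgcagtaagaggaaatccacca
RHEX: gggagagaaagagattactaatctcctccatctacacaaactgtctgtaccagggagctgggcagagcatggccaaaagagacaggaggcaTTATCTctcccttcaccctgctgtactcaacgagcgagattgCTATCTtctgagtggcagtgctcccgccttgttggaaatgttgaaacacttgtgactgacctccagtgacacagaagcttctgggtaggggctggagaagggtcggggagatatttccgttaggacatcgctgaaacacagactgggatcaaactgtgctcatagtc
ITGA2B held 1 match, which begins 102 bases before the start, MS4A2 held 1 that begins 54 bases before, RHEX held 2, at 159 and 117 bases before, and HDC held 0. The RHEX window lies inside the gene as counted here (206052723 to 206102459), so its matches are placed against an internal start. The HDC window also lies inside the gene as counted (50241947 to 50266026). The ITGA2B window lies wholly outside and upstream of the gene as counted (44372180 to 44389505), so its match is placed against a start that differs from that gene's. Promoters were found for 11411 of the 18514 genes tested, and 15.9% of them held at least 1 match, while 25.5% of the 27305 promoters in the whole table did. A match was present in 4 of 9 mast cell and basophil genes with a promoter, in 7 of 11 megakaryocyte genes, in 3 of 6 erythroid genes and in 1 of 6 eosinophil genes. PRG2 and EPX had no promoter entry and are not among those 6. Among called genes, 6 of 28 lower and 8 of 29 higher genes with a promoter held a match. A match describes letters only, and binding was not measured.

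The 82 called genes, 39 higher and 43 lower, were grouped by role after their values were seen. The other tested genes were not grouped, so no share over all genes stands beside these counts. In this grouping, 7 called genes encode matrix proteins, matrix proteases or secreted proteins that bind matrix, 6 of them lower. HSPG2 encodes perlecan, a heparan sulfate proteoglycan of basement membranes. It had 85.1 and 77.9 CPM in the LacZ samples, 45.7 and 41.2 with sg1, 35.97 and 35.3 with sg5, lower in every ARID1A-deficient sample than in LacZ (log2 fold change -1.04 (SE 0.12), adjusted p = 0.00737 by edgeR). COL27A1, a fibrillar collagen, had 59.3 and 61.8 CPM in the LacZ samples, 27.2 and 33.1 with sg1, 29.3 and 25.5 with sg5. Its 4 ARID1A-deficient values spread by less than their distance from LacZ (log2 fold change -1.07 (SE 0.11), adjusted p = 0.00498 by edgeR). SPARC, a collagen-binding glycoprotein also known as osteonectin, had 76.1 and 74.6 CPM in the LacZ samples, 46.96 and 33.7 with sg1, 39.2 and 45.9 with sg5 (log2 fold change -0.86 (SE 0.13), adjusted p = 0.0382 by edgeR). MMP2, a gelatinase, had 24.9 and 24.97 CPM in the LacZ samples, 14.8 and 10.8 with sg1, 13.4 and 13.4 with sg5 (log2 fold change -0.93). The serine protease HTRA3 (116 to 137 CPM in LacZ and 49.9 to 77.7 in the ARID1A-deficient samples, log2 fold change -0.97) and CILP2 (9.85 to 10.9 CPM in LacZ and 3.31 to 5.99 in the ARID1A-deficient samples, log2 fold change -1.18) also fell. ADAMTS18, a metalloprotease, was the matrix gene that rose, from 0.0949 and 0.278 CPM in LacZ to between 0.929 and 1.30 CPM (log2 fold change 2.53). With 5 and 14 counts in the LacZ samples, it entered the test through the ARID1A-deficient group, so its side is not independent of the filter.

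On the wider list of 24 tested matrix and proteoglycan genes, 7 lay below LacZ and 2 above, against 10.4% and 9.72% of all genes. On that list 2 were called lower (HSPG2 and SPARC), and the median was -0.19. AGRN, agrin, was at 80.9 to 99.8 CPM in LacZ and 50.7 to 66.7 in the ARID1A-deficient samples without passing (adjusted p = 0.172 by edgeR), and passed without the 2 libraries that lay apart (log2 fold change -0.49, adjusted p = 0.0937 by edgeR). COL4A2, a basement membrane collagen, was on the other side at 51.03 to 53.005 CPM in LacZ and 67.2 to 93.8 in the ARID1A-deficient samples (log2 fold change 0.62, adjusted p = 0.156 by edgeR, and 0.0724 without those libraries), as was the syndecan SDC2 at 10.9 to 11.6 CPM in LacZ and 13.997 to 19.5 in the ARID1A-deficient samples.

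Of 22 tested integrin genes, 4 lay below LacZ and 1 above, against 10.4% and 9.72% of all genes. The 3 that were called were all alpha chains and all lower. Beside ITGA2B these were ITGA7 and ITGA3, whose products pair with beta 1 to bind laminin. ITGA7 had 15.2 and 12.7 CPM in the LacZ samples, 6.82 and 7.67 with sg1, 6.78 and 6.65 with sg5 (log2 fold change -0.995 (SE 0.14), adjusted p = 0.0288 by edgeR), and it shares exons with BLOC1S1 and its read-through, neither of which passed the test. ITGA3 had 5.94 and 5.63 CPM in the LacZ samples, 2.99 and 3.11 with sg1, 3.30 and 2.29 with sg5 (log2 fold change -0.99). ITGA6, another laminin receptor chain, was above LacZ in all 4 samples at 11.05 to 12.97 CPM in LacZ and 14.3 to 16.4 in the ARID1A-deficient samples (adjusted p = 0.403 by edgeR). ITGAM, which encodes CD11b of mature granulocytes, overlapped between groups with 51.3 and 37.01 CPM in the LacZ samples, 48.96 and 47.5 with sg1, 55.1 and 37.996 with sg5. ICAM3, a leukocyte adhesion molecule, was the adhesion gene called higher, at 239 to 255 CPM in LacZ and 317 to 406 in the ARID1A-deficient samples (log2 fold change 0.59).

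Of 10 called genes grouped as channels, pumps and transporters, also after their values were seen and without a share over all genes, 8 fell and 2 rose. KCNH2 encodes the hERG potassium channel and had 85.1 and 68.04 CPM in the LacZ samples, 38.5 and 28.4 with sg1, 27.02 and 36.1 with sg5 (log2 fold change -1.24 (SE 0.15), adjusted p = 0.0133 by edgeR). GRIK3, a kainate receptor subunit, had 9.25 and 6.78 CPM in the LacZ samples, 1.46 and 1.98 with sg1, 2.86 and 1.21 with sg5. Its values spread more than those of KCNH2 among the ARID1A-deficient samples but stayed well below both LacZ samples (log2 fold change -2.10 (SE 0.30), adjusted p = 0.0332 by edgeR). STRA6, the membrane receptor through which cells take up retinol, had 8.22 and 6.39 CPM in the LacZ samples, 2.23 and 2.79 with sg1, 2.94 and 1.34 with sg5 (log2 fold change -1.65). The nucleoside transporter SLC28A3 (11.8 to 13.4 CPM in LacZ and 6.78 to 8.42 in the ARID1A-deficient samples), the prostaglandin transporter SLCO2A1 (1.61 to 1.78 CPM in LacZ and 0.494 to 0.661 in the ARID1A-deficient samples) and the potassium channel KCNK5 (30.4 to 32.2 CPM in LacZ and 20.3 to 21.7 in the ARID1A-deficient samples) fell as well. LRRC8C, a subunit of the volume-regulated anion channel, rose at 75.2 to 77.001 CPM in LacZ and 97.9 to 116 in the ARID1A-deficient samples.

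**Figure D3:**
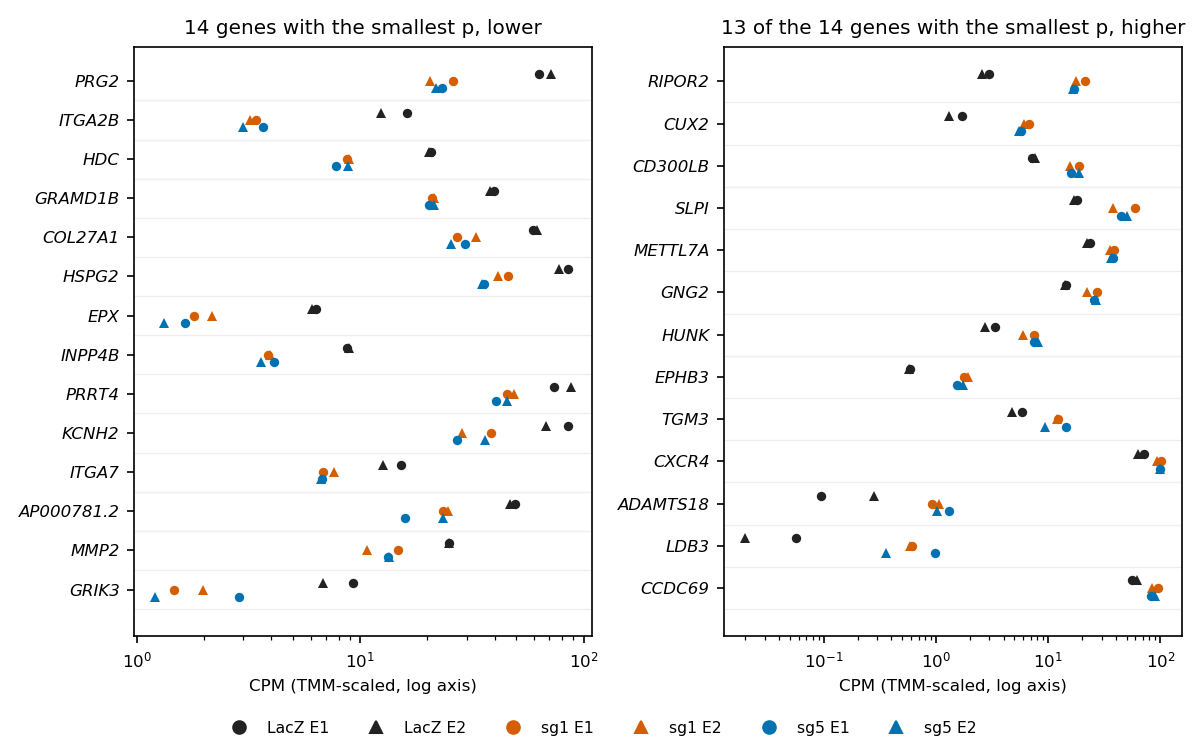
Each row is 1 gene and each point 1 sample in CPM on a log axis, black for LacZ, orange for sg1 and blue for sg5, circles for replicate 1 and triangles for replicate 2. The left panel shows the 14 lower and the right panel 13 of the 14 higher protein-coding genes with the smallest p. In every row the 4 colored points lie on one side of both black points, and the fitted fold change is largest for LDB3, RIPOR2 and ADAMTS18 on the right and for ITGA2B and GRIK3 on the left.

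RIPOR2 had the smallest p of all genes. It encodes an inhibitor of the small GTPase RHOA and lies on chromosome 6, 24804281 to 25042170. It had 2.94 and 2.56 CPM in the LacZ samples, 21.2 and 17.8 with sg1, 16.9 and 16.8 with sg5, with no ARID1A-deficient sample near either LacZ sample. Means were 2.75 ± 0.272 CPM in LacZ (SD, n = 2) and 18.2 ± 2.06 in the ARID1A-deficient samples (SD, n = 4), a ratio of 6.61 (log2 fold change 2.72 (SE 0.17), adjusted p = 0.000194 by edgeR). With each guide alone its log2 fold change was 2.82 for sg1 and 2.61 for sg5. CUX2, a homeobox transcription factor, had 1.69 and 1.31 CPM in the LacZ samples, 6.74 and 6.12 with sg1, 5.71 and 5.46 with sg5. Samples with sg1 and sg5 were alike in level (log2 fold change 2.0 (SE 0.20), adjusted p = 0.00498 by edgeR), and with each guide alone the log2 fold change was 2.09 for sg1 and 1.89 for sg5.

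Of 13 called genes grouped as signaling genes, again after their values were seen, 8 rose and 5 fell. GNG2, a G protein gamma subunit, had 14.4 and 14.1 CPM in the LacZ samples, 27.5 and 22.01 with sg1, 25.8 and 26.6 with sg5 (log2 fold change 0.84 (SE 0.12), adjusted p = 0.0348 by edgeR). HUNK, a protein kinase, was at 2.74 to 3.38 CPM in LacZ and 6.01 to 8.09 in the ARID1A-deficient samples (log2 fold change 1.25). UBASH3B, a phosphatase that restrains tyrosine kinase signaling, was at 39.8 to 48.6 CPM in LacZ and 63.4 to 80.3 in the ARID1A-deficient samples (log2 fold change 0.72), and IRS1, the insulin receptor substrate, at 14.8 to 19.6 CPM in LacZ and 25.1 to 30.2 in the ARID1A-deficient samples (log2 fold change 0.69). On the lower side, INPP4B, a phosphatase of PI3K lipids, had 8.71 and 8.90 CPM in the LacZ samples, 3.86 and 3.94 with sg1, 4.11 and 3.58 with sg5 (log2 fold change -1.19 (SE 0.15), adjusted p = 0.0133 by edgeR). ARAP3, which regulates small GTPases downstream of PI3K, was at 67.1 to 68.2 CPM in LacZ and 40.8 to 46.5 in the ARID1A-deficient samples (log2 fold change -0.61). GRAMD1B, which moves cholesterol from the plasma membrane to the endoplasmic reticulum, fell with 39.8 and 37.9 CPM in the LacZ samples, 20.9 and 21.3 with sg1, 20.4 and 21.5 with sg5 (log2 fold change -0.89 (SE 0.09), adjusted p = 0.00498 by edgeR). Of 27 tested cholesterol synthesis genes, 0 lay above LacZ, 2 below and 0 were called by edgeR, with 0 members at an unadjusted p under 0.05.

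Of 8 called genes that were grouped as leukocyte and growth factor receptors, their ligands or antigen presentation, after their values were seen, 7 rose. CD300LB, an activating receptor of myeloid cells, had 7.12 and 7.62 CPM in the LacZ samples, 18.98 and 15.8 with sg1, 16.05 and 18.9 with sg5, a ratio of means of 2.37 (log2 fold change 1.24 (SE 0.14), adjusted p = 0.00737 by edgeR). CXCR4, the receptor for the chemokine CXCL12, had 71.1 and 62.6 CPM in the LacZ samples, 102 and 94.1 with sg1, 100.1 and 99.99 with sg5 (log2 fold change 0.57 (SE 0.09), adjusted p = 0.0521 by edgeR). The groups did not overlap, and the step was small next to that of CD300LB. EPHB3, an ephrin receptor, was at 0.575 to 0.589 CPM in LacZ and 1.53 to 1.91 in the ARID1A-deficient samples (log2 fold change 1.58). GPR183, an oxysterol receptor, was at 3.25 to 4.10 CPM in LacZ and 6.53 to 9.69 in the ARID1A-deficient samples (log2 fold change 1.11), and CD79A, a signaling chain of the B cell receptor, at 4.62 to 6.21 CPM in LacZ and 9.16 to 10.9 in the ARID1A-deficient samples (log2 fold change 0.87). JAG2, a Notch ligand, was the lower gene of this group at 0.972 to 1.48 CPM in LacZ and 0.218 to 0.405 in the ARID1A-deficient samples (log2 fold change -2.07). Of 37 cytokine and cytokine receptor genes tested, 9 lay above and 7 below LacZ, and CXCR4 was the one called.

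HLA-DRA, the alpha chain of the MHC class II molecule HLA-DR, had 0.304 and 0.0595 CPM in the LacZ samples, 2.59 and 1.06 with sg1, 2.45 and 1.44 with sg5. LacZ held 19 counts in all and the ARID1A-deficient samples 366, a ratio of 10.3 (exact 95% interval 6.51 to 17.3, counting error only), and the fitted adjusted p was 0.0817 by edgeR. It was called in 1 of the 6 refits without 1 library. CD74, the invariant chain that escorts MHC class II molecules, had 19.2 and 13.7 CPM in the LacZ samples, 45.1 and 29.5 with sg1, 49.3 and 23.6 with sg5 (log2 fold change 1.17, adjusted p = 0.404 by edgeR). CIITA, the activator of class II transcription, had 3.15 and 2.97 CPM in the LacZ samples, 5.54 and 4.88 with sg1, 5.24 and 4.73 with sg5 (adjusted p = 0.174 by edgeR). Of 10 tested class II genes, 4 lay above LacZ and 0 below, against 9.72% and 10.4% of all genes, with a median of 0.54. The summed level was 23.5 to 29.6 CPM in LacZ and 35.999 to 64.7 in the ARID1A-deficient samples. HLA-DRA and HLA-DMB, both among the 4, reached the minimum of 10 counts for testing in 1 LacZ sample and all 4 ARID1A-deficient samples. Both entered the test through the group where they were higher, so their side is not independent of the filter. The count of 4 above was the same by plain CPM and by TPM, where 1 member lay below in TPM. Of 16 tested class I presentation genes, 1 lay above LacZ and 0 below, and none was called by edgeR, with 0 members at an unadjusted p under 0.05.

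Of the granulocyte genes on the lists for primary granules, for secondary and tertiary granules and for mature neutrophils, SLPI and CHI3L1 rose and no other was called by edgeR. SLPI, an inhibitor of neutrophil serine proteases, had 17.9 and 16.9 CPM in the LacZ samples, 59.9 and 37.8 with sg1, 44.5 and 50.5 with sg5, a ratio of means of 2.77 (log2 fold change 1.47 (SE 0.17), adjusted p = 0.01002 by edgeR). CHI3L1, a chitinase-like protein of specific granules, had 103 and 89.9 CPM in the LacZ samples, 169 and 143 with sg1, 134 and 149 with sg5 (log2 fold change 0.62 (SE 0.12), adjusted p = 0.0821 by edgeR). MMP9, a gelatinase of tertiary granules, lay below LacZ at 360.2 to 454 CPM in LacZ and 153 to 283 in the ARID1A-deficient samples (log2 fold change -1.001, adjusted p = 0.192 by edgeR), and without the 2 libraries that lay apart it passed (log2 fold change -1.11, adjusted p = 0.00415 by edgeR). Among 10 tested secondary and tertiary granule genes, 2 lay above and 3 below LacZ. The calprotectin genes S100A8 and S100A9 were above LacZ in all 4 samples. S100A9 had 8.54 and 8.39 CPM in the LacZ samples, 40.3 and 18.7 with sg1, 20.9 and 22.2 with sg5, with sg1 replicate 1, one of the libraries that lay apart, highest (log2 fold change 1.59, adjusted p = 0.174 by edgeR), and without both of those libraries it passed (log2 fold change 1.22, adjusted p = 0.00273 by edgeR). S100A8 was at 0.952 to 2.03 CPM in LacZ and 2.99 to 6.76 in the ARID1A-deficient samples (adjusted p = 0.205 by edgeR). LYZ, lysozyme, was at 128 to 131 CPM in LacZ and 182 to 368 in the ARID1A-deficient samples (log2 fold change 1.06, adjusted p = 0.220 by edgeR).

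Among 17 tested primary granule genes, 4 lay below LacZ, 2 above, and none was called by edgeR, with 4 members at an unadjusted p under 0.05. MPO overlapped between groups at 14817 to 16825 CPM in LacZ and 13431 to 15407 in the ARID1A-deficient samples (log2 fold change -0.13). By TPM it did not overlap, at 6913 to 7769 in LacZ and 5991 to 6813 in the ARID1A-deficient samples. On that scale 5 members of the list lay below LacZ and 1 above. CTSG, cathepsin G, was also lower by TPM, at 158 to 164 in LacZ and 94.6 to 122 in the ARID1A-deficient samples. AZU1 was at 215 to 217 CPM in LacZ and 159.8 to 179.5 in the ARID1A-deficient samples (log2 fold change -0.35, adjusted p = 0.220 by edgeR), and MS4A3 and CST7 also lay below LacZ with log2 fold changes of -0.22 and -0.36. Of 19 genes of mature neutrophils, 2 lay above and 2 below, with CSF3R, the G-CSF receptor, at 68.9 to 75.01 CPM in LacZ and 35.5 to 57.1 in the ARID1A-deficient samples (adjusted p = 0.275 by edgeR). CD33, a lectin of early myeloid cells, was at 79.9 to 83.2 CPM in LacZ and 68.99 to 76.3 in the ARID1A-deficient samples (log2 fold change -0.17). Among 19 monocyte and macrophage genes, 5 lay above LacZ and 3 below, and CD300LB was the one called. KLF4, a zinc finger factor of monocytes, was at 7.38 to 7.94 CPM in LacZ and 10.3 to 16.3 in the ARID1A-deficient samples (adjusted p = 0.197 by edgeR), while the monocyte co-receptor CD14 was at 0.797 to 0.912 CPM in LacZ and 0.198 to 0.703 in the ARID1A-deficient samples.

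Of 36 genes tested from the list of myeloid transcription factors, 5 lay above LacZ and 8 below. The only call was CUX2, a homeobox factor not specific to myeloid cells, at 0.242 to 0.320 TPM in LacZ. No other member was called, and the list was chosen with earlier results of these data known. GFI1, a repressor needed for neutrophil maturation, had 185 and 219 CPM in the LacZ samples, 153 and 167 with sg1, 152 and 129 with sg5, all ARID1A-deficient samples below LacZ (log2 fold change -0.43, adjusted p = 0.249 by edgeR). CEBPB was at 72.05 to 89.7 CPM in LacZ and 23.4 to 61.2 in the ARID1A-deficient samples, with sg5 replicate 2 lowest. CEBPA, CEBPE, SPI1 (PU.1), RUNX1 and MYC overlapped between groups, with log2 fold changes of -0.29, -0.17, -0.03, -0.15 and -0.19. Outside this list, DNMT3B, a de novo DNA methyltransferase, rose with 54.9 and 52.6 CPM in the LacZ samples, 85.2 and 88.1 with sg1, 71.6 and 83.3 with sg5 (log2 fold change 0.61). LIN28B, an RNA-binding protein that blocks let-7 maturation, fell with 2.43 and 2.18 CPM in the LacZ samples, 0.989 and 0.855 with sg1, 0.703 and 0.613 with sg5 (log2 fold change -1.54). AFF3, a component of elongation complexes, rose (4.54 to 4.75 CPM in LacZ and 7.42 to 10.5 in the ARID1A-deficient samples, log2 fold change 0.94), and its relative AFF2 fell (51.4 to 57.4 CPM in LacZ and 31.5 to 39.6 in the ARID1A-deficient samples, log2 fold change -0.65).

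Other SWI/SNF genes moved little. Of 29 tested subunits, 3 lay above LacZ and 1 below, and 0 passed the edgeR test, with 1 at an unadjusted p under 0.05. ARID1B, the paralog that can take the place of ARID1A in the complex, had 67.96 and 72.6 CPM in the LacZ samples, 87.6 and 78.2 with sg1, 75.995 and 73.1 with sg5, and its lowest ARID1A-deficient value barely exceeded the higher LacZ value (adjusted p = 0.654 by edgeR). SMARCD3 was at 34.4 to 37.6 CPM in LacZ and 23.3 to 31.7 in the ARID1A-deficient samples (log2 fold change -0.33). Of 15 genes of retinoid receptors and response, 1 lay above and 3 below, STRA6 was called, and RARA, one partner of the PML-RARA fusion of this leukemia, overlapped (log2 fold change -0.08).

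**Figure D4:**
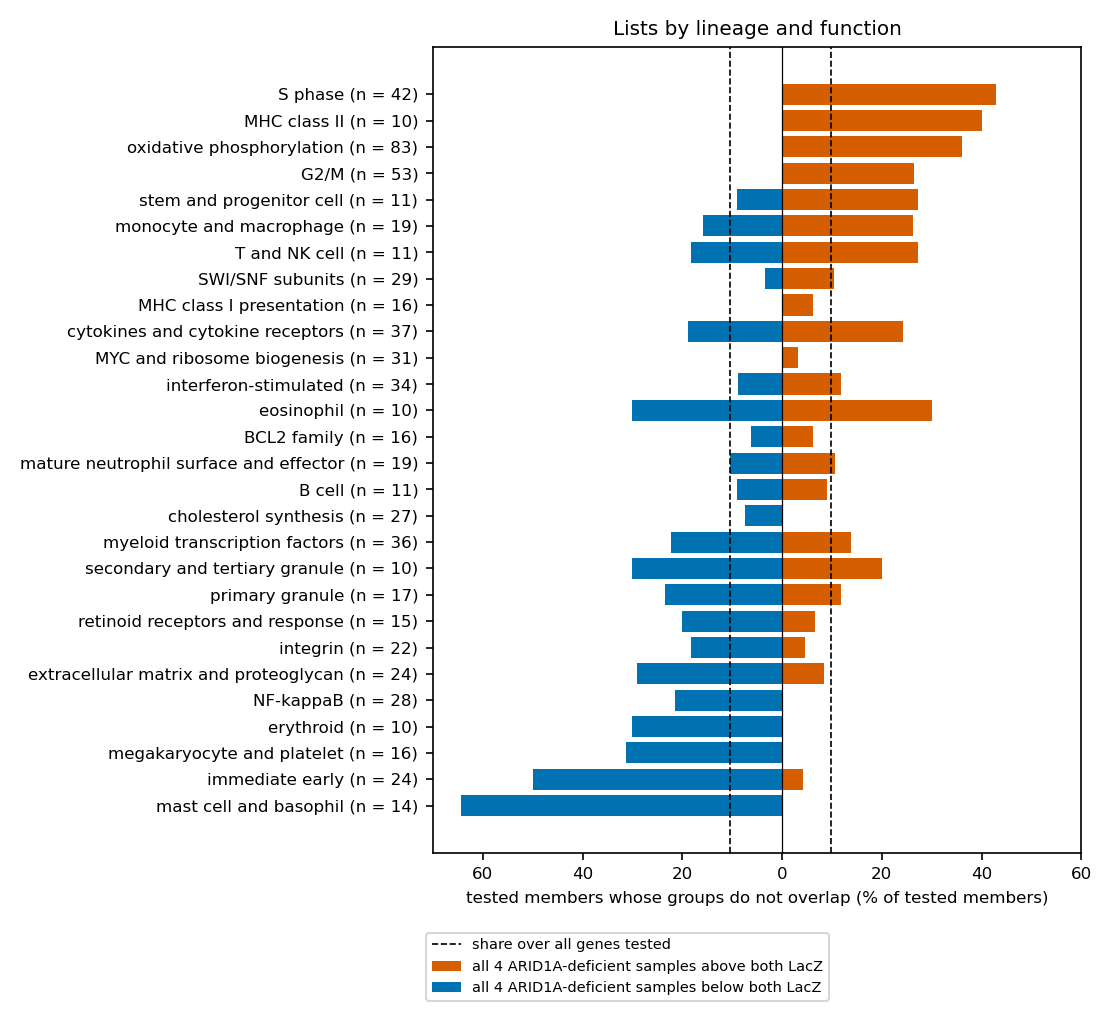
Bars give the share of tested members of each list whose 4 ARID1A-deficient samples all lay above (orange, right) or below (blue, left) both LacZ samples, in percent, with the number tested in parentheses. Dashed lines are the shares over all genes tested, 9.72% higher and 10.4% lower. Mast cell and basophil and immediate early genes reach farthest left, and S phase, MHC class II and oxidative phosphorylation genes farthest right.

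Genes of proliferation and respiration lay above LacZ in small steps. Of 42 S phase genes, 18 lay above LacZ and 0 below, against 9.72% and 10.4% of all genes, with a median of 0.22. Of 53 G2/M genes, 14 lay above and 0 below (median 0.17), and of 83 oxidative phosphorylation genes, 30 lay above and 0 below (median 0.17). By edgeR, 0 members of the 3 lists were called, with 9, 5 and 17 at an unadjusted p under 0.05. By plain CPM the counts above were 16, 9 and 26, and by TPM 10, 7 and 24. MCM6, a helicase subunit of DNA replication, had 303 and 309.6 CPM in the LacZ samples, 358 and 321 with sg1, 346 and 362 with sg5 (log2 fold change 0.18). TOP2A, the mitotic topoisomerase, had 372 and 359 CPM in the LacZ samples, 447 and 379 with sg1, 401 and 496 with sg5 (log2 fold change 0.24). ATP5MC3, an ATP synthase subunit, had 258 and 271 CPM in the LacZ samples, 380.4 and 276 with sg1, 272 and 397 with sg5 (log2 fold change 0.33). In each of these genes the 2 libraries that lay apart were the highest, and without them the log2 fold changes were 0.12 for MCM6, 0.09 for TOP2A and 0.05 for ATP5MC3. By sample, the list median of log2 ratios to LacZ for S phase was 0.24 and 0.37 in those libraries against 0.08 and 0.12 in the other ARID1A-deficient samples, and for G2/M it was 0.25 and 0.36 against 0.04 and 0.01. Without both libraries, 22 S phase genes lay above and 2 below LacZ, 15 G2/M genes above and 8 below, and 31 oxidative phosphorylation genes above and 6 below, with only 2 samples left to separate from LacZ. By that count 19.7% of all genes lay above and 18.5% below.

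**Figure D5:**
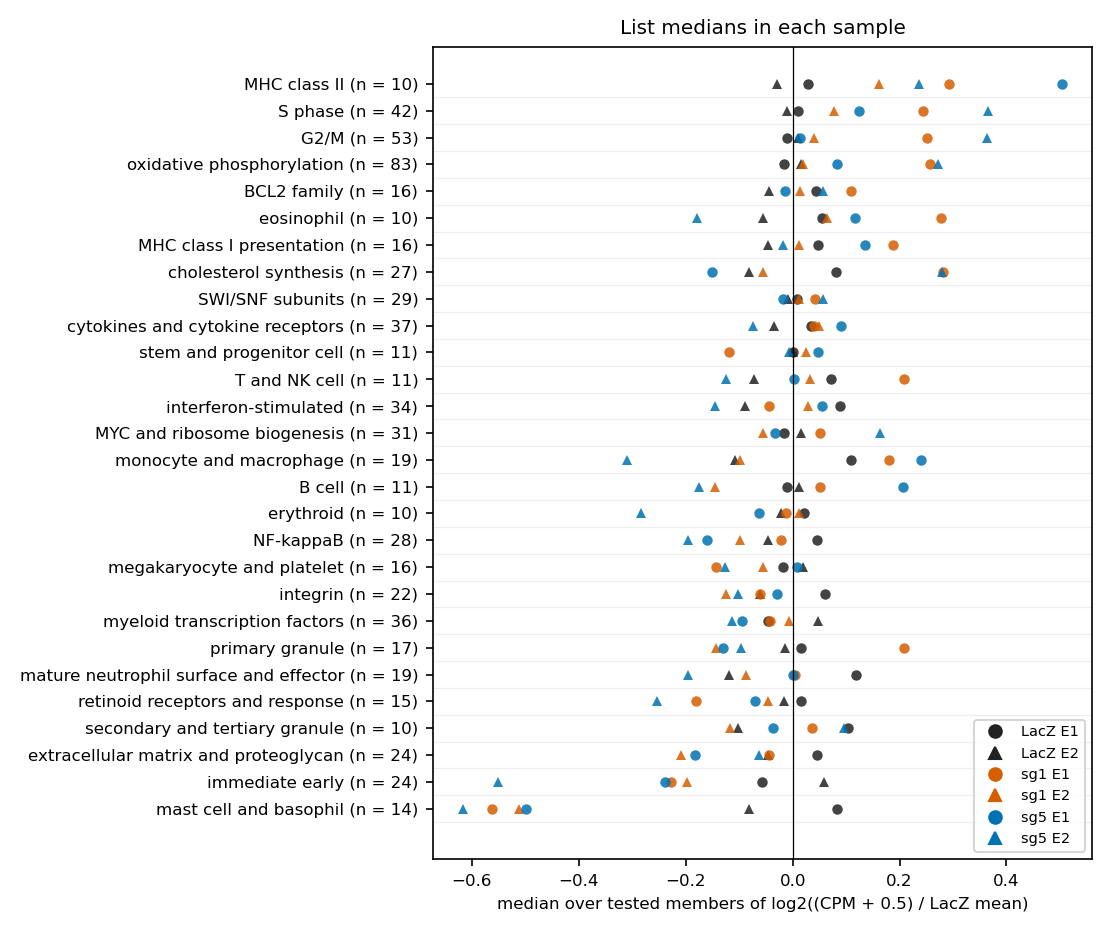
For each list and sample, a point gives the median over tested members of log2 of CPM plus 0.5 relative to the LacZ mean, with LacZ in black, sg1 in orange, sg5 in blue, circles for replicate 1 and triangles for replicate 2. The mast cell and basophil medians of the 4 ARID1A-deficient samples lie together between -0.62 and -0.50. The S phase, G2/M and oxidative phosphorylation medians are highest in sg1 replicate 1 and sg5 replicate 2.

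Immediate early genes lay on the lower side, 12 of 24 tested below LacZ and 1 above, against 10.4% and 9.72% of all genes. Their median was -0.31. By edgeR 0 were called, with 7 lower and 1 higher at an unadjusted p under 0.05. IER2 had 127 and 169 CPM in the LacZ samples, 96.8 and 117 with sg1, 93.5 and 80.7 with sg5 (log2 fold change -0.61, adjusted p = 0.210 by edgeR). DUSP6, a phosphatase of ERK, was at 126 to 141 CPM in LacZ and 90.7 to 122 in the ARID1A-deficient samples and JUND, an AP-1 subunit, at 66.5 to 71.8 CPM in LacZ and 45.5 to 66.4 in the ARID1A-deficient samples, and neither passed. FOSL2, another AP-1 subunit, was above LacZ at 94.8 to 114 CPM in LacZ and 119.8 to 142 in the ARID1A-deficient samples. The list median was -0.55 in sg5 replicate 2 and between -0.24 and -0.20 in the other 3 ARID1A-deficient samples. Of 28 NF-kappaB genes, 6 lay below and 0 above (median -0.05), against 10.4% and 9.72% of all genes. NFKB2 was at 50.9 to 76.01 CPM in LacZ and 32.5 to 50.1 in the ARID1A-deficient samples. ICAM1 was at 81.6 to 116 CPM in LacZ and 37.7 to 78.4 in the ARID1A-deficient samples. By edgeR 0 of the 28 were called, with 5 at an unadjusted p under 0.05.

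Of 34 interferon-stimulated genes 4 lay above and 3 below, of 31 MYC and ribosome biogenesis genes 1 above and 0 below, and of 16 BCL2 family genes 1 on each side. Of 11 T and NK cell genes 3 lay above and 2 below, of 11 B cell genes 1 on each side, and of 11 stem and progenitor genes 3 above and 1 below. CD4, the co-receptor that myeloid cells share with T cells, was at 142 to 169.7 CPM in LacZ and 104 to 126 in the ARID1A-deficient samples (adjusted p = 0.178 by edgeR), and PRF1, perforin, at 64.03 to 65.8 CPM in LacZ and 81.9 to 87.8 in the ARID1A-deficient samples (adjusted p = 0.156 by edgeR, and 0.0880 without the 2 libraries that lay apart). In the fit of all 6 samples, CD79A was the only called member of these 6 lists.

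The remaining called genes among the 14 with the smallest p in each direction have scattered roles. METTL7A, a methyltransferase, had 23.7 and 22.4 CPM in the LacZ samples, 38.7 and 35.4 with sg1, 37.8 and 35.98 with sg5 (log2 fold change 0.68). TGM3, a transglutaminase, was at 4.76 to 5.89 CPM in LacZ and 9.42 to 14.4 in the ARID1A-deficient samples (log2 fold change 1.17), and CCDC69 at 55.7 to 61.7 CPM in LacZ and 82.6 to 95.4 in the ARID1A-deficient samples (log2 fold change 0.59). PRRT4 fell with 73.7 and 88.1 CPM in the LacZ samples, 45.5 and 48.9 with sg1, 40.7 and 45.5 with sg5 (log2 fold change -0.84). Of 9 called genes grouped after their values were seen as metabolic and glycan enzymes or lipid transfer, 7 were higher. Among them were STS (steroid sulfatase, log2 fold change 1.01) and GCNT2 (a glycan branching enzyme, log2 fold change 0.91). LDB3, a muscle Z-disc protein, had 4 counts in LacZ and 121 in the ARID1A-deficient samples, a ratio of 16.2 (exact 95% interval 6.17 to 60.4, counting error only). The antisense gene AL133453.1 had 82 counts in LacZ and 5 in the ARID1A-deficient samples, a ratio of 30.6 (12.6 to 96.8). The read-through gene TNFSF12-TNFSF13 had 16 counts in each LacZ sample and 0 in each ARID1A-deficient sample, which is at least 4.97-fold lower against a floor of 3 counts per library. Both TNFSF12 and TNFSF13, whose exons it shares, overlapped between groups. LDB3 had 10 or more counts in the ARID1A-deficient samples only, and AL133453.1 and TNFSF12-TNFSF13 in the LacZ samples only. Each of these genes entered the test through the group where it was higher, so its side is not independent of the filter.

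Genes on the higher and lower sides differed in level. The median of mean CPM was 35.3 for the 1799 higher genes, 3.47 for the 1918 lower genes and 9.06 for all genes tested. Of the higher genes 42.1% were in the highest quartile of expression, against 14.4% of the lower genes. Steps were small on the higher side, with a median absolute log2 fold change of 0.25, against 0.47 on the lower side, where low counts also spread more. An absolute log2 fold change above 1 was found in 119 higher and 252 lower genes, and 87.8% and 75.0% of the sides were protein-coding against 73.9% of all genes. Of the 82 called genes, 56 shared no exon with another gene.

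The guides were also compared with each other, in a fit with sg1, sg5 and LacZ as separate groups. Of the 82 genes, 0 differed between sg1 and sg5 at an FDR of 0.1 by edgeR, and 1 did at an unadjusted p under 0.05. The sg1 minus sg5 log2 differences in the 82 genes ran from -1.74 to 0.76, with a median size of 0.12, the same as over all genes tested (0.12). The 82 genes were called in a fit that counts guide differences as spread, and none had groups that overlapped. Genes whose guides differ were thereby less likely to be among them, so these values are no evidence that the guides agree. Across all genes 1 passed, TEN1, a telomere-binding protein, named after its value was seen. A difference that misses the threshold with 2 samples per guide does not show that the guides act alike. In fits of 1 guide against the same LacZ samples, 18 genes were called for sg1 (0.0996%) and 29 for sg5 (0.162%). EPX had a log2 fold change of -1.65 for sg1 and -2.07 for sg5, PRG2 -1.53 for sg1 and -1.58 for sg5, HSPG2 -0.91 for sg1 and -1.20 for sg5 and SLPI 1.49 for sg1 and 1.45 for sg5.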

How the data were processed

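RNA was sequenced from 6 NB4 samples, grouped by the guide and genotype in their labels. The deposited tables hold, for each of 196354 transcripts, estimated counts and TPM made by the authors with kallisto (the submitters' processing notes name kallisto, DESeq2 and hg19), and the study's methods give a kallisto version and a murine transcript set for its RNA-seq, while the human transcript set is not given in the sources used here. The estimated counts are fractional where a read fits several transcripts, and they summed to 46131178 to 54843745 per sample. TPM was scaled by the authors for effective transcript length and is used here only for levels between genes and as an alternative scale. No strand setting is stated, so overlapping and antisense genes may share reads.

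Here, 181857 transcripts (92.6%, holding 95.4% to 95.5% of the counts in each sample) were matched by identifier to GENCODE release 29 (GRCh38), summed to 52992 genes and rounded. Gene coordinates come from that match. The main test was edgeR 4.0.16 in R 4.3.3 (TMM factors, a filterByExpr minimum of 10 counts, robust quasi-likelihood F-test, Benjamini-Hochberg adjustment), with the 4 ARID1A-deficient samples as 1 group and no other term, so that differences between the guides are part of the spread. The study compared guides with LacZ by DESeq2, which was run as an alternative (version 1.42.0). A gene did not overlap when its TMM-scaled CPM in all 4 samples lay on one side of both LacZ samples, and this was counted without a test. Alternatives changed the tool, scaling, filter, length offset, robust estimation, replicate block, guides, unmatched transcripts and libraries.

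Genes were named by a rule: ARID1A, the 14 protein-coding genes with the smallest p in each direction, called members of 28 lists with up to 4 other non-overlapping members of each by highest CPM, and a panel of 15 genes. One gene chosen by this rule is counted but not reported here. Further called genes were named after their values were seen, as were the functional roles of the 82 genes. The comparison and the lists were chosen with earlier results of these data known, and the study's own gene list, made on these samples, names some of the genes, so list counts are no independent evidence. S phase and G2/M lists are those of Seurat 5.3.0. Python 3.11.15 was used for joins, promoter searches and plots.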

Additional observations from a re-analysis of the deposited data

Results flagged for a closer look

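Of 137 named genes, 7 (5.11%) had 1 ARID1A-deficient sample whose distance from the nearest of the other 3, on log2 of CPM plus 0.5, took more of the group's range than Dixon's 95% critical value for 4 samples. Chance flags about 1 in 20 groups, and the share found is about that. In HDC, sg5 replicate 1 was lowest with a gap of 0.871 of the range (7.80 CPM against 8.74 to 8.89). In AP000781.2, the read-through over PRG2, the same sample was lowest with 0.890 (15.9 CPM against 23.5 to 24.6), and in SIGLEC8 it was highest with 0.900 (1.24 CPM against 0.554 to 0.608). In CRABP2, sg1 replicate 1 was lowest with 0.876 (1.17 CPM against 1.38 to 1.42). In sg5 replicate 2, AGRN was lowest with 0.845 (50.7 CPM against 63.9 to 66.7), SREBF2 was lowest with 0.909 (393 CPM against 453 to 460) and NASP was highest with 0.877 (375 CPM against 314 to 321).

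Transcripts that matched no gene of the annotation were outside the gene table. Of 4742 such transcripts tested together with the genes, 6 passed an FDR of 0.1 by edgeR, all higher, with at most 1 count in a LacZ sample and 17 to 197 counts in each ARID1A-deficient sample.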

How the results depend on the processing

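All 82 calls kept their direction in every refit in which the gene was tested (8 were not tested with a mean of at least 50 counts), a direction that the lack of overlap largely fixes. The number of calls was far less stable. It was 363 with DESeq2 (80 of the 82 among them), 254 without the low-count filter (all 82) and 27 at an FDR of 0.05. Far fewer of the 82 held in other settings. The number was 35 with a transcript length offset (30 of the 82) and 20 with unmatched transcripts kept (14 of the 82). With sg1 and sg5 as separate groups it was 31 (28 of the 82), with sg1 only 18 (16) and with sg5 only 29 (17). Without sg1 replicate 1 and sg5 replicate 2 it was 198 (76 of the 82). Without single replicates it ranged from 10 (without LacZ replicate 1, 7 of the 82) to 146 (without sg1 replicate 2, 78 of the 82). It was 82 with DESeq2 size factors, 73 with a mean of at least 50 counts and 58 without robust estimation. The genes with no overlap numbered 2840 to 4956 with other scales or filters, 7064 without that pair of libraries, and 4437 to 8126 without single replicates, where fewer samples have to separate. The causes were not tested further.

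Replicate numbers did not pair the samples: deviations from group means of same-numbered samples correlated across genes at 0.07, 0.01 and -0.21. With the replicate block 47 genes were called (40 of the 82), and with the replicate block and a length offset 26 (21 of the 82). With the numbers of sg5 crossed, a block added after seeing the data, 349 were called (all 82 among them).

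Reversed fold changes were all of genes without a call. ARID1A was at 0.0009 with a length offset, 0.0049 with the block added, 0.214 with sg1 only and -0.181 to 0.117 without single replicates. ITGA6 was at -0.0083 with a length offset and -0.0154 with the block added, and ITGB4 at 0.003 in the latter. SPI1 was at 0.0527 with sg1 only and -0.124 to 0.0142 without replicates. Without single replicates, ITGAM ranged from -0.112 to 0.361 and RARA from -0.142 to 0.0003. With 2 LacZ samples the spread of the control rests on 1 difference, and genes with too few counts were not tested.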
